A study of Mus musculus with 18 samples.

Results

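This report describes the mRNAs of 6 GABA-A receptor subunits, Gabra2, Gabra3, Gabrb1, Gabrb2, Gabrg1 and Gabrg3, in mouse dorsal root ganglia (DRG), in all 4 groups of libraries. The genes were taken by name from the 22021 genes listed, and the set was chosen by its levels in the ribosome pulldown against input, in which Gabrg1 had been seen to be strongly depleted. The levels of the 6 genes in pulldown against input are therefore given as a description, without a test. Pulldown and input came from translating ribosome affinity purification (TRAP): Cre recombinase under the Scn10a (Nav1.8) promoter switched on the Rosa26fsTRAP allele, so that neurons expressing the sodium channel Nav1.8, mostly nociceptors, carried ribosomal protein L10a fused to EGFP, and antibodies against GFP recovered those ribosomes with their mRNA. The groups were paclitaxel TRAP and paclitaxel input (biosamples 5 to 8), and normal TRAP and normal input (biosamples 1 to 4). All mice carried both alleles on a C57BL/6J background, were 8 to 12 weeks old and of both sexes, and all ganglia were taken up in cycloheximide and emetine. The drug, a microtubule-stabilising agent used against cancer, was injected intraperitoneally 4 times at 4 mg/kg, for 16 mg/kg in all over 8 days. The labels describe a cremaphor vehicle arm but call the other libraries only normal, and do not give the number of animals per biosample, so p-values measure the spread between these biosamples.

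GABA-A receptors are chloride channels built as rings of subunits, most often of the α, β and γ classes, and GABA binds where an α and a β subunit meet. The γ subunit, with its α neighbour, forms the site for benzodiazepines and helps to place the receptor at synapses. Mature DRG neurons keep a high internal chloride concentration, chiefly through the cotransporter NKCC1, so that GABA depolarises them rather than hyperpolarising them. Glial cells also carry GABA-A receptors, and in the mouse cerebellum Gabra2 and Gabrg1 are known from Bergmann glia.

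Over the listed genes the TRAP libraries held 5972325 to 32713508 reads and the input libraries 4266016 to 14478015 reads, and 3 reads corresponded to 0.0917 to 0.703 reads per 1000000 (CPM). Because each read marks the end of 1 transcript, CPM needs no division by length. The TRAP libraries were unequal in complexity, with 8081 to 13228 genes at 1 CPM or more, against 13152 to 14043 genes in input. Scn10a, which marks the targeted neurons, averaged 1405 ± 297 CPM in paclitaxel TRAP and 562 ± 76.4 CPM in paclitaxel input, and 1002 ± 338 CPM in normal TRAP and 666 ± 248 CPM in normal input (SD, n = 4 each). Of the 6 subunit genes 5 passed the filter of 1 CPM in at least 4 of the 16 libraries that remained after the subsamples of biosample 7 were averaged, along with 14214 genes in all. Gabrb2 reached 1 CPM in 1 library and was left out of the tests. All values come from whole ganglia or pulldowns, in which fewer cells of a type and less RNA per cell cannot be told apart.

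Gabrg1 was far lower in TRAP than in input, at 8.81 ± 6.45 CPM in paclitaxel TRAP against 63.9 ± 17.6 CPM in paclitaxel input, and 7.98 ± 10.7 CPM in normal TRAP against 79.4 ± 29.1 CPM in normal input (SD, n = 4 each). Gabra2 lay at 68.1% of its input mean in paclitaxel TRAP and at 83.3% in normal TRAP, and Gabra3 at 38.6% and 49.0%. Gabrb1 was at or near 0 reads in 3 of 4 paclitaxel TRAP biosamples, Gabrb2 stayed at or below 1.31 CPM, and Gabrg3 at or below 2.46 CPM once the subsamples were averaged. None of the 5 tested subunits passed the test for paclitaxel against normal in either fraction.

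Of the 6 genes, 3 lie on chromosome 5 (GRCm38, annotation GENCODE vM21). Gabrg1 spans chr5:70751047-70842617 on the minus strand with 9 exons, followed on the same strand by Gabra2 at chr5:70957597-71095849 with 10 exons, and Gabrb1 lies on the plus strand at chr5:71658113-72149037 with 9 exons. The other members are Gabrb2 at chr11:42419757-42629028 on the plus strand, Gabrg3 at chr7:56716465-57387188 on the minus strand and Gabra3 at chrX:72432681-72656848 on the minus strand, each with 10 exons. The 5′ end of Gabrb1 shares 196 bases with the 5′ end of another subunit gene, Gabra4, on the opposite strand. The libraries were made with a 3′ mRNA kit, so reads mark the other end of each transcript. The strand setting of the counting is not given in the sources used here, so any reads in that overlap could not be assigned to either gene.

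The neighbours Gabrg1 and Gabra2 differed in TRAP although both were well represented in input, and their promoter windows, 250 bases before to 50 bases after the transcript start (RefSeq, GRCm38.p6), are shown for that reason. Capitals mark CG dinucleotides, and both sequences are given 5′ to 3′ on the minus strand.
Gabrg1, chr5:70842568-70842867: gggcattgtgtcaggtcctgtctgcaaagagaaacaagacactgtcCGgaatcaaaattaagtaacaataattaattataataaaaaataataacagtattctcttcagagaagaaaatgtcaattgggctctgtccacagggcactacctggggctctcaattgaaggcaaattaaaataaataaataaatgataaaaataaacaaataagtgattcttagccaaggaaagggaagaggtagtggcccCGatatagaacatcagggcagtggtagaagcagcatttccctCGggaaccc
Gabra2, chr5:71095800-71096099: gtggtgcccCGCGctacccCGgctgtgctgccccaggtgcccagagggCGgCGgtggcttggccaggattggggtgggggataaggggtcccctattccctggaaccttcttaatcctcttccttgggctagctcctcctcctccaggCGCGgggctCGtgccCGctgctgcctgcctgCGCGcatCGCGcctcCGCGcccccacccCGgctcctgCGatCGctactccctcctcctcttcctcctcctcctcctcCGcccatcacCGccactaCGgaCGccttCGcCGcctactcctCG
The Gabrg1 window held 3 CG dinucleotides and a GC content of 38.3%, and the Gabra2 window held 25 CG dinucleotides and a GC content of 70.0%, against medians of 7 and 52.7% over 32851 promoter windows of the same length. A lower GC content than in the Gabrg1 window was found in 7.45% of the windows, and a lower content than in the Gabra2 window in 90.4%. On either strand the Gabra2 window held 2 copies of GGGCGG, the GC box, and the Gabrg1 window held 0, where 35.7% of all windows held at least 1. The TATA box was searched as TATAAA, which 13.6% of all windows held and neither of these did. A core of SOX factor sites was searched as ACAAAG, and it was in 18.7% of all windows and in neither of these. The 2 Gabra3 windows overlap each other and held 0 CG dinucleotides, with a GC content of 43% and 39.3%. The first held ACAAAG. The TATAAA match in both was the same shared stretch, printed as TTTATA on the strand of the gene. Gabra3 TRAP was at 38.6% of input in paclitaxel and 49.0% in normal biosamples. The 2 Gabrb1 windows held 25 and 9 CG dinucleotides, with a GC content of 66% and 50.3%. Gabrb1 TRAP was at 20.9% and 48.8% of input. Whether promoter sequence had a part in TRAP levels was not tested. Matches describe letters in a window and are not binding sites.

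Gabra2 encodes α2, an α subunit that with a γ partner forms a benzodiazepine site. In paclitaxel TRAP it was at 38.3, 48.9, 13.6 and 27.8 CPM in biosamples 5 to 8, and in paclitaxel input at 49.2, 63.0, 41.1 and 35.3 CPM. In normal TRAP it was at 30.6, 8.16, 34.5 and 49.7 CPM in biosamples 1 to 4, and in normal input at 39.9, 18.8, 45.7 and 43.1 CPM. TRAP was below input in 7 of 8 biosamples, all but biosample 4, and the ranges of the fractions overlapped in both treatments. Biosample 2 was the lowest normal sample in both fractions. On the log2(CPM + 1) scale TRAP minus input averaged -0.65 ± 0.591 in paclitaxel and -0.42 ± 0.539 in normal biosamples (SD, n = 4 each), close to the medians of all tested genes, -0.56 and -0.66. The normal value turned to 0.00203 under median-ratio scaling, 0.0248 under quantile normalization and 0.0722 in edgeR with its TMM scaling. Those scalings moved the all-gene median to between -0.36 and 0.0435 in paclitaxel and between -0.44 and 0.000493 in normal biosamples.

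Gabra3 encodes α3, an α subunit known from the reticular nucleus of the thalamus. It was at 17.1, 24.2, 5.28 and 9.46 CPM in paclitaxel TRAP against 42.6, 60.1, 22.4 and 20.2 CPM in paclitaxel input. The values in normal TRAP were 18.7, 12.7, 21.7 and 21.4 CPM, against 44.0, 22.5, 42.2 and 43.1 CPM in normal input. TRAP was below input in 8 of 8 biosamples, and in the normal group the highest TRAP value lay just under the lowest input value. The log2 difference averaged -1.37 ± 0.376 in paclitaxel and -0.97 ± 0.170 in normal biosamples (SD, n = 4 each), the narrowest spread of the 5 tested subunits in both treatments. Over 20 alternative settings it ran from -1.51 to -0.98 in paclitaxel and from -1.03 to -0.49 in normal biosamples. For every subunit some of these settings could not move the TRAP minus input value. They were leaving out biosamples of the other treatment, changing the filter, robust estimation and dropping the biosample block.

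**Figure D1:**
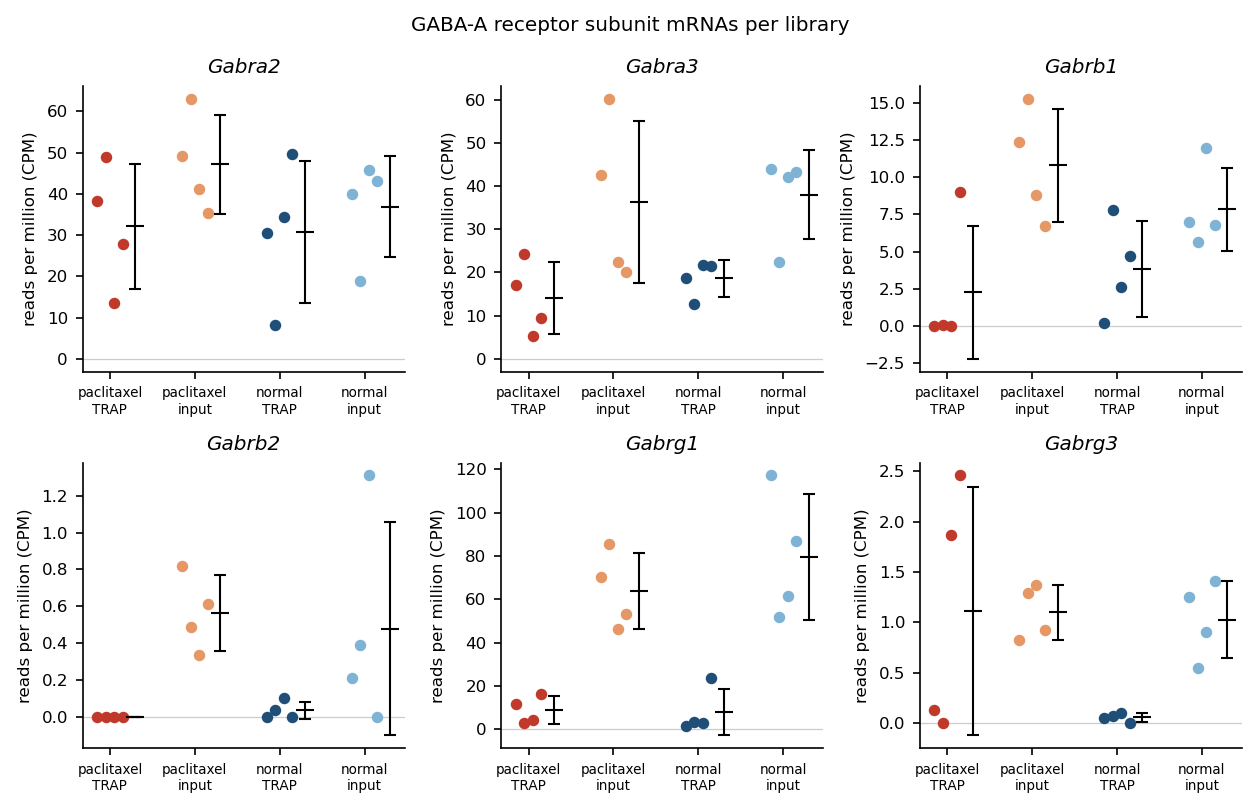
CPM of the 6 subunit mRNAs in each library (points, in order of biosample number, with the subsamples of biosample 7 averaged) with mean ± SD beside them (n = 4 each), for paclitaxel TRAP, paclitaxel input, normal TRAP and normal input. For Gabrg1 every TRAP point lies below every input point, the nearest being 23.9 CPM in normal TRAP and 46.5 CPM in paclitaxel input, while the Gabra2 fractions overlap.

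Gabrb1 encodes β1, a subunit of the class that helps to form the GABA binding site. In paclitaxel TRAP it had 0 reads in biosample 5, 1 read in biosample 6 and 0 reads in both subsamples of biosample 7, where 3 reads would be 0.0917 to 0.281 CPM, but 95 reads, or 8.98 CPM, in biosample 8. In paclitaxel input it was at 12.4, 15.3, 8.83 and 6.73 CPM. Normal TRAP held 0.15, 7.83, 2.63 and 4.69 CPM, from 3, 210, 51 and 28 reads, against 6.96, 5.65, 11.95 and 6.80 CPM in normal input. Biosamples 8 and 2 were thus above their own input, and the other 6 were below it. The mean log2 difference was -2.66 ± 2.04 in paclitaxel biosamples and -1.17 ± 1.42 in normal biosamples (SD, n = 4 each). Without biosample 8 the paclitaxel value was -3.67, and without biosample 1 the normal value was -0.63. Over 20 alternative settings the values ran from -7.12 in edgeR to -1.26 with a pseudocount of 5 in paclitaxel, and from -1.76 with a pseudocount of 0.1 to -0.21 under quantile normalization in normal biosamples. In paclitaxel biosamples the gap was then wider than that of Gabrg1 in edgeR (-2.74 for Gabrg1), with a pseudocount of 0.1 (-4.98 against -3.14) and without biosample 8 (-3.67 against -3.39).

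Gabrb2 encodes β2, a β subunit abundant in the brain. It had 0 reads in all 5 paclitaxel TRAP libraries, where 3 reads would be 0.0917 to 0.284 CPM, and 0 to 8 reads per library in paclitaxel input, with a mean of 0.564 ± 0.205 CPM (SD, n = 4). Normal TRAP held 0 to 2 reads per library. Normal input held 3, 5, 19 and 0 reads in biosamples 1 to 4, and the 19 reads of biosample 3 made 1.31 CPM. At this depth no fold change of Gabrb2 was meaningful.

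Gabrg1 encodes γ1, a γ subunit that takes the place of the commoner γ subunit in some receptors. It was at 11.7, 2.87, 4.16 and 16.6 CPM in paclitaxel TRAP against 70.4, 85.6, 46.5 and 53.2 CPM in paclitaxel input. In normal TRAP the values were 1.55, 3.50, 2.94 and 23.9 CPM against 117, 51.9, 61.8 and 87.0 CPM in normal input. No TRAP library reached the level of any input library, in either treatment. The paclitaxel TRAP mean was 13.8% of the input mean and the normal TRAP mean 10.1%. On the log2 scale the difference averaged -2.95 ± 1.21 in paclitaxel and -3.72 ± 1.53 in normal biosamples (SD, n = 4 each), the 137th and the 3rd lowest of the 14214 tested genes. Over 20 alternative settings it ran from -3.57 to -2.41 in paclitaxel and from -4.36 to -2.91 in normal biosamples, the lowest normal value being the one without biosample 4.

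The depth of the Gabrg1 gap differed between biosamples. TRAP held 16.6%, 3.35%, 8.94% and 31.1% of the input level in paclitaxel biosamples 5 to 8, and 1.32%, 6.75%, 4.76% and 27.5% in normal biosamples 1 to 4. The highest share of each treatment belonged to the TRAP library with the most genes at 1 CPM or more in that treatment, 13228 genes in biosample 8 and 12439 in biosample 4. The other biosamples followed this order in part. Biosample 1, with 9715 such genes, had the fewest in the normal group and the lowest share. Biosample 5, with 10884, was above biosamples 6 and 7 in both. Against the order, biosample 3, with 12076, held 4.76%, and biosample 2, with 10147, held 6.75%. Likewise biosample 6, with 10399, held 3.35%, and biosample 7, with a mean of 10013 over its subsamples, held 8.94%. The subsamples of biosample 7 also differed, with 1 read, or 0.09 CPM, in the TRAP subsample that had 8081 such genes and 99 reads, or 8.22 CPM, in the one that had 11945. Whether library complexity had a part in these levels was not tested.

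Gabrg3 encodes γ3, a less abundant γ subunit of the brain. In paclitaxel TRAP it was at 0.13, 0, 1.87 and 2.46 CPM, and the value of biosample 7 came from 45 reads in 1 subsample and 0 in the other. Paclitaxel input held 0.82, 1.29, 1.37 and 0.92 CPM. Normal TRAP held 0 to 2 reads per library, at most 0.1 CPM, against 1.25, 0.55, 0.90 and 1.41 CPM in normal input, from 6 to 18 reads. The normal fractions did not overlap, and the paclitaxel TRAP samples lay on both sides of their inputs. The log2 difference averaged -0.19 ± 0.923 in paclitaxel and -0.92 ± 0.326 in normal biosamples (SD, n = 4 each), on a scale that understates the change of so low a gene. Quantile normalization turned these values to 0.92 and 0.18, and the paclitaxel value was also above 0 without biosample 6, at 0.15, and without biosamples 1, 2, 5 and 6, at 0.56.

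Over all tested genes, all 4 TRAP libraries lay below all 4 inputs in 25.1% of cases in paclitaxel and 19% in normal biosamples, 36.5% and 36.4% of genes were below their own input in all 4 biosamples of a treatment, and 20.8% in all 8, as were 2 of the 5 tested subunits, Gabra3 and Gabrg1. Since the genes were chosen with this contrast in view, nothing is read from these counts. Among the 5 tested subunits the smallest mean gap was that of Gabrg3 in paclitaxel and of Gabra2 in normal biosamples.

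**Figure D2:**
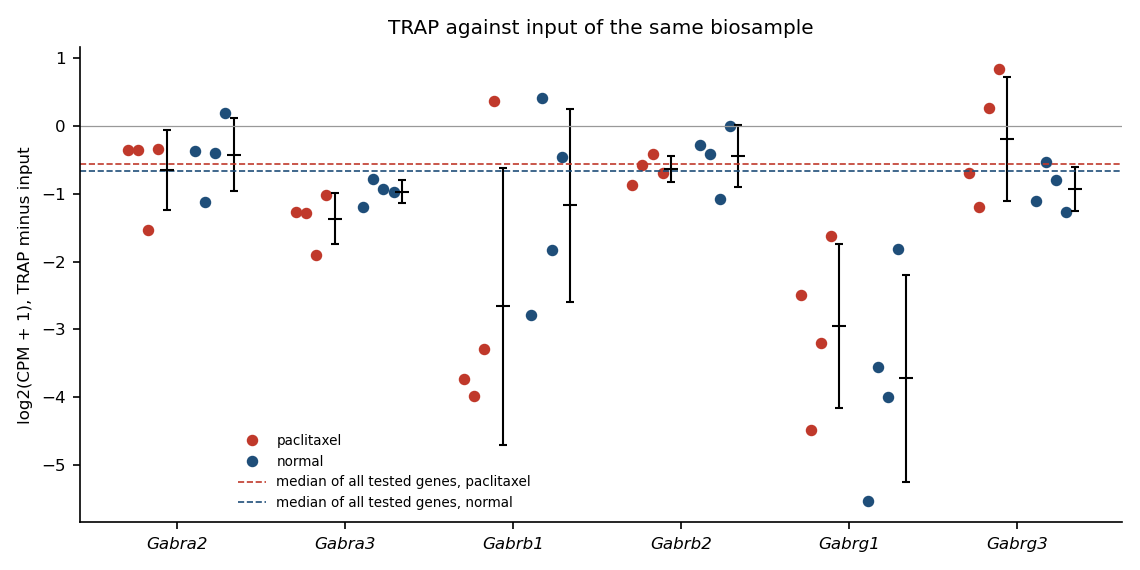
Difference between TRAP and input of the same biosample in log2(CPM + 1) for each subunit, with paclitaxel points to the left of normal points, mean ± SD beside them (n = 4 each), and dashed lines at the median of all tested genes. On this scale Gabrg1 has the lowest means, -2.95 and -3.72, while Gabra2 lies near the medians of -0.56 and -0.66.

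Ranked by group mean, Gabra2 was highest in paclitaxel input, followed by normal input, paclitaxel TRAP and normal TRAP, with overlapping ranges at each step. Gabra3 ran from normal input through paclitaxel input and normal TRAP to paclitaxel TRAP, and Gabrb1 and Gabrb2 from paclitaxel input through normal input and normal TRAP to paclitaxel TRAP, again with overlap at every step. For Gabrg1 the order was normal input, paclitaxel input, paclitaxel TRAP and normal TRAP, and the step between paclitaxel input and paclitaxel TRAP was the one without overlap. For Gabrg3, paclitaxel TRAP, paclitaxel input and normal input overlapped, and normal TRAP lay below all normal inputs.

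The cells outside the targeted population could be followed through marker lists. The 10 satellite glia markers summed to 490 to 547 CPM in paclitaxel TRAP against 1275 to 1571 CPM in paclitaxel input, and to 311 to 518 CPM in normal TRAP against 800.03 to 1840 CPM in normal input. No satellite marker was at 0 in any library. The sum in TRAP was 34.8% to 42.0% of input in paclitaxel and 16.9% to 50.5% in normal biosamples. Gabrg1 stood below the satellite sum of its own biosample in 8 of 8. Since Gabrg1 was chosen for its depletion in TRAP, nothing is read from this order. Single satellite glia markers differed widely. Fabp7, a fatty acid binding protein of satellite glia, was at 16.1% of its input mean in paclitaxel TRAP and 10.4% in normal TRAP. Cdh19, a cadherin of the glial lineage, was at 17.6% and 13.0%. Gja1 was at 8.04% and 39.0%, and Glul at 73.1% and 43.7%. The 10 myelinating Schwann cell markers summed to 27.0% to 38.8% of input in paclitaxel and 26.6% to 52.9% in normal biosamples. The 6 markers of large-fibre neurons summed to 42.2% to 65.4% and 56.0% to 114%, and the 10 nociceptor markers to 166% to 196% and 120% to 220%. Taken singly, 7 of the 10 nociceptor markers passed as higher in paclitaxel TRAP and 0 as lower (limma, adjusted p under 0.05). In normal TRAP 2 passed as higher and 2 as lower. Over all tested genes 4.92% were higher and 23% lower in paclitaxel, and 5.09% and 24.7% in normal biosamples. The part of glial or other RNA in the subunit levels was not tested.

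**Figure D3:**
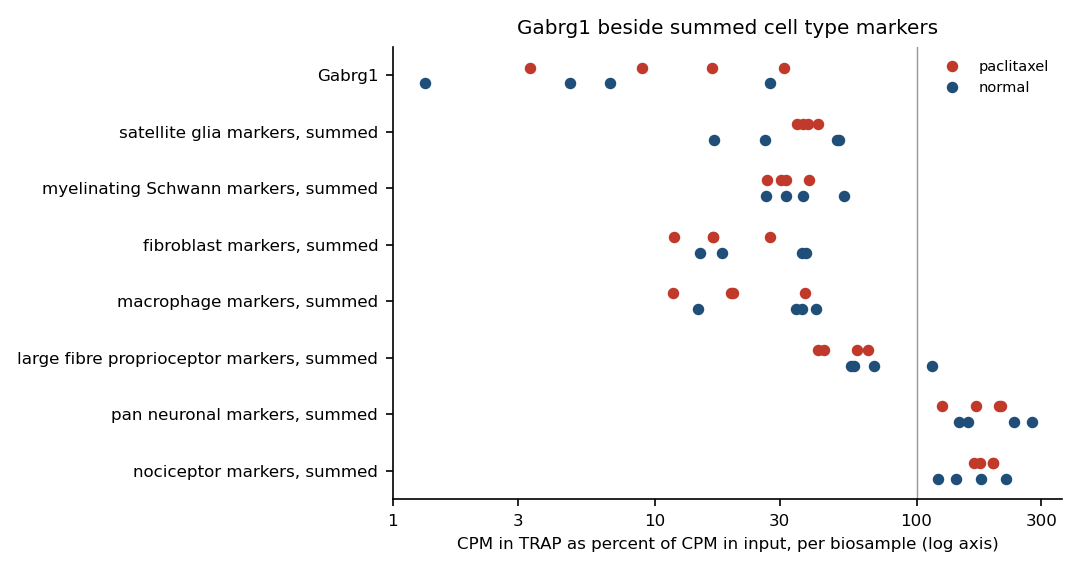
CPM in TRAP as a percent of CPM in the input of the same biosample (log axis) for Gabrg1 and for summed marker lists, with paclitaxel points above normal points in each row (n = 4 biosamples each). Gabrg1, which was chosen for its depletion in TRAP, runs from 1.32% to 31.1%, below the satellite glia sum in each biosample. The nociceptor sum lies above 100%, though in normal biosamples 2 of its 10 markers were called higher and 2 lower in TRAP.

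The question whether paclitaxel altered these subunits was asked in TRAP libraries, in input libraries, and as a shift of TRAP relative to input. Of the 5 tested subunits 0 passed in each (limma, Benjamini-Hochberg adjusted p under 0.05 over all tested genes), where 1.82% of genes passed in TRAP (1.33% higher and 0.492% lower), 1.64% in input (1.46% higher and 0.183% lower) and 0.19% in the shift (0.162% higher and 0.0281% lower). No subunit had an unadjusted p under 0.05 in any of the 3, and edgeR on recovered reads also called 0. The paclitaxel and normal ranges overlapped for all 6 genes in both fractions, where 10.3% of tested genes did not overlap in TRAP and 11.3% in input. The choice of Gabrg1 rested on these same libraries.

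In TRAP libraries the change was -1.09 for Gabrb1 on the log2 scale (SE 0.901, 95% interval -3.02 to 0.85, adjusted p = 0.585 by limma) and 0.80 for Gabrg3 (SE 0.465, -0.20 to 1.79, adjusted p = 0.420). Gabrg1 had 0.49 (-1.58 to 2.57), Gabra2 0.16 (-1.10 to 1.43) and Gabra3 -0.55 (-1.91 to 0.81). These intervals are wide: for Gabrg1 they reach from 0.335-fold to 5.92-fold. The sign for Gabra2 turned, with 1 change at a time, under each of 3 other scalings, without biosample 2, without biosample 6, and without biosamples 1, 2, 5 and 6 together. The sign for Gabrg1 turned without those 4 biosamples, and with the subsample of biosample 7 that had fewer genes in place of the mean.

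Inputs were more even. The difference for Gabrg1 was -0.28 on the log2 scale (95% interval -0.86 to 0.30, adjusted p = 0.613 by limma), which is 0.824-fold with an interval of 0.552 to 1.23. For Gabra2 the value was 0.39 (-0.22 to 1.00), for Gabrb1 0.41 (-0.25 to 1.07), for Gabra3 -0.15 (-0.87 to 0.56) and for Gabrg3 0.06 (-0.54 to 0.66). These intervals are narrower than those in TRAP.

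The shift of TRAP relative to input, which compares the paclitaxel with the normal difference, was -1.49 for Gabrb1 (SE 1.05, 95% interval -3.65 to 0.66, adjusted p = 0.625 by limma) and 0.77 for Gabrg1 (SE 0.762, -0.80 to 2.35, adjusted p = 0.744). It was 0.73 for Gabrg3, -0.40 for Gabra3 and -0.22 for Gabra2, with intervals that include 0. Over all comparisons by treatment 0 of 287 values from alternative settings passed.

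**Figure D4:**
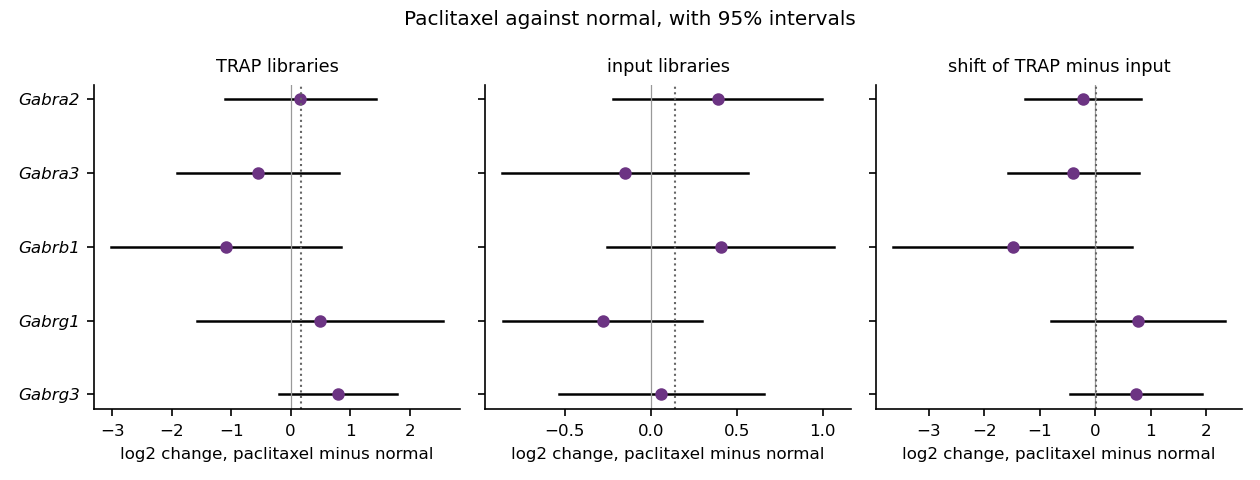
Change between paclitaxel and normal in log2(CPM + 1) for the 5 tested subunits in TRAP libraries, in input libraries, and in the difference between TRAP and input; points are estimates, bars 95% intervals, and the dotted line the median of all tested genes, and the axes differ in range. All 15 intervals include 0, and those in input are the narrowest.

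The other genes of GABA signalling were followed through 67 genes in 6 lists, of which 55 were tested. Among them 3 were higher and 17 lower in paclitaxel TRAP than in paclitaxel input, where 4.92% of all tested genes were higher and 23% lower, 27.9% in all. In normal biosamples 3 were higher and 16 lower, where 5.09% of all tested genes were higher and 24.7% lower, 29.8% in all. Of the 13 remaining GABA-A subunit genes 7 were tested, and 3 were lower in TRAP in paclitaxel and 5 in normal biosamples, with 0 higher at an adjusted p or an unadjusted p under 0.05. These counts depended on scaling. In edgeR 5 of the 55 genes were higher and 6 lower in paclitaxel TRAP, and 5 higher and 1 lower in normal TRAP, and of the 7 subunits 1 was lower in paclitaxel and 0 in normal TRAP (4 at unadjusted p under 0.05). Under quantile normalization 1 of the 7 was lower in each treatment, and 1 was higher in each at unadjusted p under 0.05. Over all genes 17.6% of the calls were higher in paclitaxel TRAP and 17.1% in normal TRAP, against 59.9% and 67.2% in edgeR.

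Gabbr1, a subunit of the metabotropic GABA-B receptor, was among the 3 higher genes in both treatments. It was at 926, 996, 744 and 724 CPM in paclitaxel TRAP against 378, 387, 381 and 375 CPM in paclitaxel input, and at 831, 1004, 888 and 609 CPM in normal TRAP against 259, 459, 385 and 319.5 CPM in normal input. The log2 change was 1.14 in paclitaxel biosamples (SE 0.177, adjusted p = 0.000106 by limma) and 1.23 in normal biosamples (SE 0.177, adjusted p = 2.61e-05 by limma). Each call was kept in 20 of 20 alternatives. Its partner Gabbr2, the other subunit of the same receptor, averaged 159 ± 29.9 CPM in paclitaxel TRAP against 128 ± 6.46 CPM in paclitaxel input, and 117 ± 30.6 CPM in normal TRAP against 172 ± 24.96 CPM in normal input (SD, n = 4 each). It was called lower in normal TRAP (log2 change -0.57, SE 0.212, adjusted p = 0.0459 by limma), a call kept in 6 of 20 alternatives with adjusted p-values of 0.0404 to 0.879, and was not called in paclitaxel biosamples. Gabarap, which binds γ subunits and serves in their trafficking, was higher by 0.83 in paclitaxel TRAP than in paclitaxel input (adjusted p = 0.00574 by limma, 20 of 20 alternatives), and by 0.57 in normal TRAP than in normal input, where the call was kept in 10 of 20.

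Slc12a2, the gene of NKCC1, was lower in TRAP than in input, with 132 ± 34.1 CPM in paclitaxel TRAP against 347 ± 111 CPM in paclitaxel input, and 173 ± 47.3 CPM in normal TRAP against 310 ± 70.9 CPM in normal input (SD, n = 4 each). The log2 change was -1.36 in paclitaxel biosamples (adjusted p = 0.000209 by limma, kept in 20 of 20 alternatives) and -0.85 in normal biosamples (adjusted p = 0.00745). The normal call was lost under median-ratio scaling, without biosample 1, without biosamples 1, 2, 5 and 6, and in edgeR, with adjusted p-values of 0.0679 to 0.327. Kctd8, an auxiliary subunit of GABA-B receptors, fell by 1.93 in normal TRAP on the log2 scale (adjusted p = 0.000633 by limma, 20 of 20 alternatives) and by 1.04 in paclitaxel TRAP, where the call was kept in 9 of 20.

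**Figure D5:**
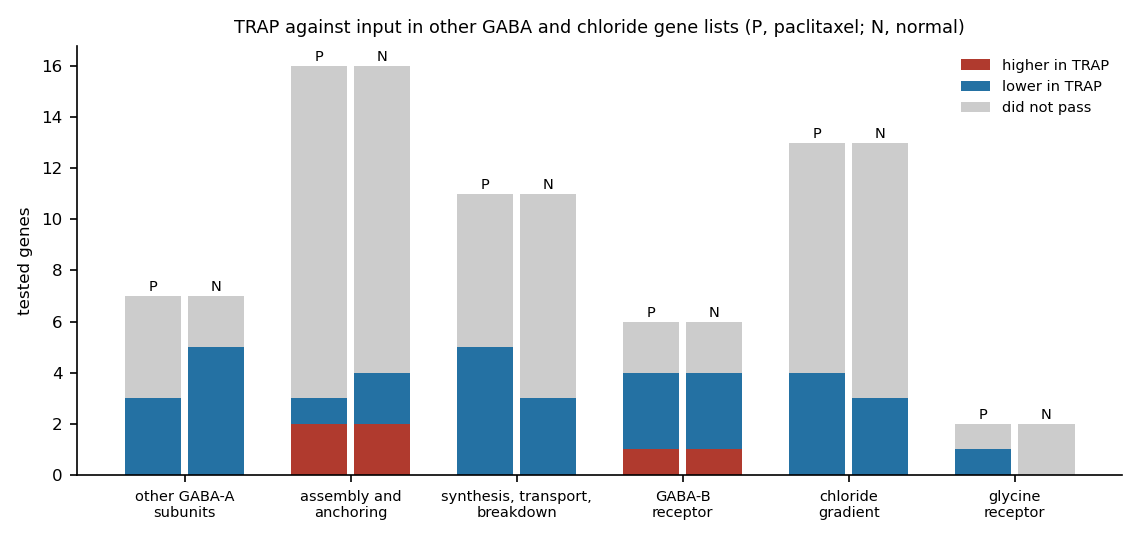
Number of tested genes that were higher in TRAP, lower in TRAP or did not pass (limma adjusted p under 0.05) in each of 6 gene lists, with paclitaxel (P) to the left of normal (N). The GABA-A subunits outside the 6 described genes had 3 lower in paclitaxel and 5 lower in normal TRAP, against 1 and 0 in edgeR.

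Between treatments 0 of the 55 pathway genes passed limma's test in TRAP libraries (7 at unadjusted p under 0.05) and 0 in the shift (7), and edgeR called 1 and 0. In paclitaxel input 4 were higher than in normal input and 0 lower, where 1.46% of all tested genes were higher. They were Gad2, Slc6a11, Dbi and Ano1, and the calls of Dbi and Ano1 were kept in 9 and 5 of 19 alternatives. Gad2, the GABA-synthesising enzyme GAD65, was at 12.8, 13.2, 18.4 and 14.8 CPM in paclitaxel input against 4.04, 2.90, 3.38 and 6.56 CPM in normal input. The groups did not overlap, as held for 11.3% of all tested genes in input, and the log2 change was 1.63 (SE 0.281, adjusted p = 0.0200 by limma). Slc6a11, the GABA transporter GAT-3, was at 12.9, 20.3, 25.5 and 14.1 CPM in paclitaxel input against 2.57, 3.37, 7.94 and 5.86 CPM in normal input, a log2 change of 1.74 (SE 0.334, adjusted p = 0.0237 by limma). Both calls were kept in 13 of 19 alternatives and were lost with no filter, without biosample 1, 5, 7 or 8, and without biosamples 1, 2, 5 and 6, with adjusted p-values of 0.0567 to 0.105 for Gad2 and 0.0567 to 0.126 for Slc6a11. In the same inputs the satellite glia markers had 2 of 10 higher and 0 lower. The sums of the satellite glia, myelinating Schwann cell, nociceptor, macrophage, fibroblast and endothelial markers overlapped between the input groups. The sums of the remaining lists did not. The 6 pan-neuronal markers summed to 7166 to 9193 CPM in paclitaxel input against 12566 to 15066 CPM in normal input. The 6 large-fibre markers summed to 1214 to 1544 CPM against 708 to 1108 CPM, and the 3 erythroid markers to 570.4 to 1804 CPM against 161 to 259 CPM. Taken singly, 1 of the 6 pan-neuronal markers passed, as lower, where 0.183% of all tested genes were lower. Of the 6 large-fibre markers 0 passed, and of the 3 erythroid markers 2 passed, as higher. The part of cell composition was not tested.

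The genes whose levels followed 4 of the subunits most closely over the 16 libraries were taken by Pearson's r of log2(CPM + 1), as a description, since the libraries share fraction and complexity. For Gabrg1 they were Kcnd2, a potassium channel of the A type (r = 0.968), Hecw2, a ubiquitin ligase (0.963), Ccdc62 (0.961) and Sema5a, a semaphorin (0.959). Gabra2 was closest to Fads6 (0.929) and Prrt1 (0.915), Gabra3 to the kinase gene Pdpk1 (0.934) and to Hepacam, a glial adhesion protein (0.930), and Gabrb1 to Tcirg1 (0.951) and Cited2 (0.950). Among the subunits themselves, Gabrb1 and Gabrg1 had r = 0.74 over the 16 libraries, but 0.44 over the 8 TRAP and 0.13 over the 8 input libraries. Gabra2 and Gabra3 had 0.72 over all, 0.69 over TRAP and 0.72 over input libraries.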

How the data were processed

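The deposited table holds 1 column per library for 18 libraries made with a 3′ mRNA kit. The submitters' processing notes name Bowtie2 2.2.9, Cufflinks 2.2.1, FastQC 0.11.5, TopHat2 2.1.1 and the build GRCm38.p4, without order. Per the file headers the values are TPM, but the deposited values are CPM: the columns share 1 total, and 98.2% to 99.3% of values below 300 are whole multiples of 1 step within 0.0051 CPM. That step gave the recovered reads. The design had been written for the headed unit and was applied to CPM. Another 2 columns belong to no single library and were not used. The subsamples of biosample 7 were averaged.

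Genes that reached 1 CPM in 4 or more of 16 libraries were tested on log2(CPM + 1) with limma 3.58.1 in R 4.3.3 (trend on, two-sided, Benjamini-Hochberg over 14214 genes). TRAP against input and the shift had biosample as a block, since both fractions came from 1 homogenate; the deviations of paired libraries correlated at 0.0534 to 0.376. Paclitaxel against normal was fitted within each fraction. Floors and intervals cover counting error or biosample spread only. Alternatives included edgeR 4.0.16 (quasi-likelihood, TMM) on recovered reads. The fits were tested on simulated data. The members and gene lists were chosen with earlier results of these data known. Named were all 6 members, up to 3 passing genes per list, direction and comparison with the largest change, and the 4 genes most like each member. The text gives part of these.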

Additional observations from a re-analysis of the deposited data

Results flagged for a closer look

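In 3 of 23 groups of 4 biosamples 1 value lay farther from the other 3, relative to the range, than Dixon's critical value at the 95% level, and chance gives about 1 in 20 such groups. Gabrg1 in normal TRAP was at 23.9 CPM in biosample 4, against 1.55 to 3.50 CPM in the others. Gabrb1 in paclitaxel TRAP was at 8.98 CPM in biosample 8, where the other biosamples held 0 to 0.03 CPM. Gabra3 in normal input was at 22.5 CPM in biosample 2, against 42.2 to 44.0 CPM in the others.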

How the results depend on the processing

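Under all alternatives run, 0 of 287 treatment values of the subunits passed. Gabrg1 and Gabra3 stayed lower in TRAP than in input, though some alternatives could not move those differences. The signs of values that had not passed turned as follows, and the cause was not tested. For Gabra2, paclitaxel against normal in TRAP was -0.0498 under median-ratio scaling, -0.0746 under quantile normalization, -0.0994 in edgeR, -1.05 without biosamples 1, 2, 5 and 6, and -0.353 to 0.514 with 1 biosample left out. Without biosamples 1, 2, 5 and 6 the TRAP value of Gabrg1 was -0.0596, and the input values of Gabra2, Gabrb1 and Gabrg3 were -0.215, -0.206 and -0.00452. The TRAP value of Gabrg1 was -0.0667 with subsample 1 of biosample 7 alone. The input value of Gabrg3 was -0.151 under quantile normalization and -0.0603 without biosample 2, in a range of -0.0603 to 0.152 with 1 biosample left out. The input value of Gabra3 was 0.0263 without biosample 7 and 0.0747 without biosample 8, in a range of -0.435 to 0.0747. The shift of Gabra2 was 0.0711 without biosample 7, in a range of -0.455 to 0.0711.

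Counts over all genes, which set the background shares, moved more. TRAP against input passed 3963 genes in paclitaxel and 4233 in normal biosamples, 1915 and 1864 in edgeR, 1845 and 2393 without biosamples 1, 2, 5 and 6, and 2049 to 4377 and 2327 to 4356 with 1 biosample left out, and the normal count was 2695 under quantile normalization and 2785 with subsample 1. Paclitaxel against normal in TRAP passed 259 genes, 729 with a filter of 5 CPM, 523 under quantile normalization, 590 with robust estimation, 478 in edgeR, 100 with subsample 1, 0 with no filter (2372 at unadjusted p under 0.05), 0 without biosamples 1, 2, 5 and 6 (1528), and 0 to 491 with 1 biosample left out, the 0 without biosample 2 or 8 (2058 and 2026). In input the count was 233, 107 under quantile normalization, 126 without biosamples 1, 2, 5 and 6, 144 in edgeR, 0 with no filter (2962 at unadjusted p under 0.05), and 0 to 831 with 1 biosample left out, the 0 without biosample 1 (2079). The shift passed 27 genes, 13 with a pseudocount of 0.1, 6 under quantile normalization, 9 without biosamples 1, 2, 5 and 6, 5 and 17 with subsample 1 or 2, 0 with no filter (1737 at unadjusted p under 0.05), 0 in edgeR (1203), and 0 to 86 with 1 biosample left out, the 0 without biosample 7 (1289). Without the biosample block TRAP against input passed 3119 and 3287 genes and the shift 0 (1082 at unadjusted p under 0.05).

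Of the calls, 17.6% were higher in paclitaxel TRAP and 17.1% in normal TRAP, against 39.3% and 45.1% under median-ratio scaling and 47.6% and 48.5% under quantile normalization. For paclitaxel against normal 73.0% were higher in TRAP, against 46.4%, 58.7% and 40.4% under median-ratio scaling, quantile normalization and edgeR, and 88.8% in input, against 75.8% and 68.1% under median-ratio scaling and edgeR. Biosamples 1, 2, 5 and 6 had been set to be left out together as poor in detected genes. The TRAP subsamples of biosample 7 had 8081 and 11945 genes at 1 CPM or more, a mean of 10013. Biosamples 5 and 6 had 10884 and 10399. The depth left Gabrb2 with 0 to 19 reads and Gabrg3 with 0 to 45 reads per library.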
